A study of Mus musculus with 4 samples.

Results

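The kinases that release NF-kB from its inhibitors and the ubiquitin-editing proteins that restrain them were examined in Ras-transformed mouse embryonic fibroblasts with and without the NF-kB subunit p65. The 8 genes were chosen by name, with earlier results of these data known: Ikbkb, Ikbkg, Ikbke, Map3k14, Map3k7, Tnfaip3, Tnip1 and Cyld. All 8 had at least 1 probe set on the array, out of 18193 genes measured, and together they had 27 of the 45037 probe sets. None of these 27 was shared with another gene. The fibroblasts (MEFs) had been infected with pBabe-HRASG12V-Hygro, a retroviral vector that brings in oncogenic Ras and hygromycin resistance, so all 4 groups carried Ras. There were p65-/-Ras and p65+/+Ras cells, each as tumour cells and as pre-injection cells. Tumour cells came from tumours that formed in SCID mice, which lack T and B lymphocytes, and were returned to culture after collagenase treatment and kept in hygromycin for 2 weeks. Pre-injection cells were the same cultures before they were put into mice. Each group was measured on 1 Affymetrix array from total RNA, and the age of the embryos, the number of mice and tumours and the clonality of the lines are not given in the sources used here.

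No group was replicated, so the values have no replicate error and no test could be made. "Higher" and "lower" give the direction of a ratio between 2 single arrays, and a gene was called at a ratio of 2-fold or more. The number of arrays limits the precision. Genotype cannot be told apart from cell line, nor less RNA per cell from fewer expressing cells. Growth in the mouse cannot be told apart from the collagenase treatment, the return to culture and the hygromycin that tumour cells went through.

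NF-kB is held in the cytoplasm by IkB proteins until an IkB kinase (IKK) marks these for destruction. The classical IKK complex pairs catalytic subunits, among them the Ikbkb product IKKb, with the scaffold NEMO, encoded by Ikbkg, which binds ubiquitin chains. It is switched on by TAK1, the Map3k7 product, after receptors such as the TNF receptor build those chains, while NIK, the Map3k14 product, drives a separate route to p52 and RelB. Cyld removes ubiquitin chains and A20, encoded by Tnfaip3, edits them with the help of ABIN1, the Tnip1 product, so that signalling ends. Tnfaip3 is a classical NF-kB target and thus part of a feedback loop, which is why its level in cells without p65 is of interest.

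Promoter windows are shown for the genes in which a kappa B consensus, the DNA motif bound by NF-kB dimers, was found on either strand. A window held 250 bases before and 50 bases after a RefSeq transcription start, taken from RefSeq with build GRCm38.p6. The motif was searched by its consensus of 10 letters, and overlapping matches were joined. Windows existed for 7 of the 8 genes (11 windows, with none for Ikbkb), and 4 of the 11 windows, those of Tnfaip3, Tnip1, Cyld and Map3k7, held the motif. Over all 32851 windows, 8.46% held it, and over genes the share was 9.55%. A match is a run of letters, and binding was not measured. Capitals mark the matches in the sequences below, which are written on the strand of the gene.
Tnfaip3, chr10:19015361-19015660, minus strand: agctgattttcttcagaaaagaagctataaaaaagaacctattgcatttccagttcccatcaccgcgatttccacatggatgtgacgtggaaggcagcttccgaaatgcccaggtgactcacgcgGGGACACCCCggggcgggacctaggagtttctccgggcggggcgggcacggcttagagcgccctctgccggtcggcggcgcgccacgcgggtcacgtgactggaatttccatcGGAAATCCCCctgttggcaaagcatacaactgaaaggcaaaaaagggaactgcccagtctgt
Tnip1, chr11:54962891-54963190, minus strand: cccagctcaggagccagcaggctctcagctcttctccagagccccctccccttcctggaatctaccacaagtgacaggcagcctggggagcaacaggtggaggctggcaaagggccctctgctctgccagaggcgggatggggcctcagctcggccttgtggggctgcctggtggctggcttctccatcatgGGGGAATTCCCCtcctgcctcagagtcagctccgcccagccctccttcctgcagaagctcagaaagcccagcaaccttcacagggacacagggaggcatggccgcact
Cyld, chr8:88696778-88697077, plus strand: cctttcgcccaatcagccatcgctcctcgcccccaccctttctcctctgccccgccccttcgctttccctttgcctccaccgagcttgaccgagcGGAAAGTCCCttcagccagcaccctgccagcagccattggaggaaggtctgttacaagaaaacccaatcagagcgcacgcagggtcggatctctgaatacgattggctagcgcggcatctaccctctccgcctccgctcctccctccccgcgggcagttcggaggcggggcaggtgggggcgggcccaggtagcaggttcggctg
Map3k7, chr4:31963857-31964156, plus strand: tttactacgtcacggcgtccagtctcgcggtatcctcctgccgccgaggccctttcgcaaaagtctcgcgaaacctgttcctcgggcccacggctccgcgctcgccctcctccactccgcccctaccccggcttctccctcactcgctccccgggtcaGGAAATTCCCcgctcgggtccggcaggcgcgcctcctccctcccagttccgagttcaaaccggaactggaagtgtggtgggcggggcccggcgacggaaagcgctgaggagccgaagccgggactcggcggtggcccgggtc
In Tnfaip3 the 2 stretches, with 3 matches over both strands, began 125 and 12 bases before the start. In Tnip1 1 stretch of 12 letters began 58 bases before it, with 4 overlapping matches counted over both strands. Cyld had 1 match that began 155 bases and Map3k7 1 match that began 92 bases before the start. The 4 windows of Ikbkg, those of Ikbke and Map3k14, and the second window of Tnfaip3 held no such letters.

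The checks of the arrays bear on every value that follows. Rela, the gene of p65, had signals of 209 and 214 in p65-/- tumour and pre-injection cells, against 1457 and 1479 in the p65+/+ cells, so the labels and the deleted gene go together. Rela had 1 probe set, and whether it covers the deleted exons was not determined. The floor, the median signal of an array, lay between 87.8 and 93.4. Signals of 200 or more were reached by 11153 probe sets on the p65-/- pre-injection array and by 13015 to 13419 on the other 3. Of the fibroblast markers, 9 or 10 of 10 were over the floor on each array, with summed signals of 48808 in p65-/- tumour cells, 42537 in p65-/- pre-injection cells, 40960 in p65+/+ tumour cells and 44389 in p65+/+ pre-injection cells. Single markers differed between the genotypes: before injection 2 of 10 were 2-fold or more lower in p65-/- cells and 0 higher, and in tumour cells 3 of 9 were lower and 2 higher. The surface glycoprotein gene Thy1 gave 409 in p65-/- tumour cells, 88.6 in p65-/- pre-injection cells, 993 in p65+/+ tumour cells and 1126 in p65+/+ pre-injection cells, so it was low on the same array as Cyld and Map3k7. Pdgfra, a growth factor receptor gene, was 3.42-fold lower in p65-/- cells before injection and 4.01-fold lower in tumour cells, while the matrix genes Col1a1 and Fn1 were 2.91-fold and 2.37-fold higher in p65-/- than in p65+/+ tumour cells. The part of these differences in the results was not tested. Of 8 macrophage markers, 1 to 3 were over the floor per array, with summed signals of 642 to 906. Endothelial markers reached the floor in 1 or 2 of 6 (summed signal 394 to 435), epithelial markers in 0 to 3 of 6 (341 to 448), and lymphocyte and granulocyte markers in 3 of 9 (1134 to 1420). The exception among the immune markers was Tyrobp, a signalling adaptor of myeloid cells, at 278 in p65-/- tumour cells, while the other 3 arrays gave 55.2 to 63.7. On the same array the epithelial marker Krt18 gave 127, while the other 3 arrays gave 30.7 to 39.3. The part of Tyrobp and Krt18 in the results was not tested. The pan-leukocyte gene Ptprc and the macrophage gene Adgre1 lay under the floor on all 4 arrays. The T-cell genes Cd3e, Cd4 and Cd8a gave signals between 146 and 671 on all arrays, so a signal over the floor does not by itself show that a transcript is present.

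Ikbkb encodes the catalytic subunit IKKb. Its brightest probe set, which stands for the gene, had a signal of 649 in p65-/- tumour cells, 401 in p65-/- pre-injection cells, 600 in p65+/+ tumour cells and 664 in p65+/+ pre-injection cells. The p65-/- pre-injection array was thus the low one and the other 3 lay close together. The difference before injection was 1.66-fold lower in p65-/- cells, under the 2-fold line used here. It came to 1.18-fold lower after quantile normalization and 1.28-fold lower after scaling to the 75th percentile. Of the 5 Ikbkb probe sets, 4 had enough signal to be compared. These 4 ranged from -0.73 to 0.02 (log2 difference, p65-/- over p65+/+ before injection), so that most of them were closer to no difference than the brightest. In tumour cells the same 4 ranged from -0.03 to 0.12.

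Ikbkg, the gene of NEMO, had 6 probe sets, and they disagreed. The brightest, 1454690_at, gave 375 in p65-/- tumour cells, 157 in p65-/- pre-injection cells, 363 in p65+/+ tumour cells and 438 in p65+/+ pre-injection cells. By this probe set Ikbkg was 2.79-fold lower in p65-/- than in p65+/+ cells before injection, and 2.38-fold higher in p65-/- tumour than in p65-/- pre-injection cells. The other 5 probe sets were flat. Before injection they ranged from -0.13 to 0.16 on the log2 scale, and none of them differed by more than 0.27 between any 2 arrays (log2). Their signals were low, from 119 to 254 over all arrays, and whether these 5 detect the transcript was not determined. When its 6 probe sets were averaged the difference before injection was -0.24 and the tumour change in p65-/- cells 0.12 (log2), so both calls rest on 1 probe set of 6. Through the authors' deposited table its implied log2 differences were -0.95 before injection and 0.95 for the p65-/- tumour change, both under 2-fold. The table's quotients for Ikbkg did not match the signals, so these values mix 2 sources.

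Ikbke encodes the IKK-related kinase IKKe, known from the antiviral response, and had 1 probe set. Its signal was 253 in p65-/- tumour cells, 133 in p65-/- pre-injection cells, 217 in p65+/+ tumour cells and 232 in p65+/+ pre-injection cells. The pre-injection value in p65-/- cells was 1.74-fold below that of p65+/+ cells, and the p65-/- tumour value was 1.90-fold above that of p65-/- pre-injection cells. Neither reached 2-fold, and the p65-/- tumour array gave the highest of the 4 signals.

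Map3k7, the gene of TAK1, takes part in the step just above the IKK complex. Its brightest probe set had a signal of 394 in p65-/- tumour cells, 170 in p65-/- pre-injection cells, 579 in p65+/+ tumour cells and 486 in p65+/+ pre-injection cells. Both p65-/- arrays lay below both p65+/+ arrays. The gene was 2.86-fold lower in p65-/- than in p65+/+ cells before injection and 1.47-fold lower in tumour cells. It was 2.32-fold higher in p65-/- tumour than in p65-/- pre-injection cells, and 1.19-fold higher in p65+/+ tumour than in p65+/+ pre-injection cells. After quantile normalization the p65-/- tumour change was 0.98 (log2), just under 2-fold.

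Of the 6 Map3k7 probe sets, 5 could be compared before injection and 3 of them passed 2-fold, with log2 differences of -1.65, -1.52 and -1.35. Another, 1426627_at, gave 40.7 in p65-/- against 124 in p65+/+ pre-injection cells. The p65-/- value lies under the floor, so the gene was at least 1.42-fold lower by it. The probe set 1449693_at was flat, at 96.6 in p65-/- and 90.1 in p65+/+ pre-injection cells, although it was designed from the same clone sequence (C87327) as 1419988_at, which gave 109 and 341. The remaining one was far under the floor on all arrays. In tumour cells all 5 compared probe sets were lower in p65-/- cells, by 0.08 to 0.59 on the log2 scale.

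Map3k14, the gene of NIK, went the other way before injection, without reaching 2-fold. Its signal was 247 in p65-/- tumour cells, 237 in p65-/- pre-injection cells, 174 in p65+/+ tumour cells and 203 in p65+/+ pre-injection cells. Both p65-/- arrays were above both p65+/+ arrays, by 1.42-fold in tumour cells and by 1.17-fold before injection. The second probe set gave log2 differences of at least 0.33 in tumour cells and 0.17 before injection. Map3k14 was the one member in which the p65-/- pre-injection array was higher than the p65+/+ pre-injection array.

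**Figure D1:**
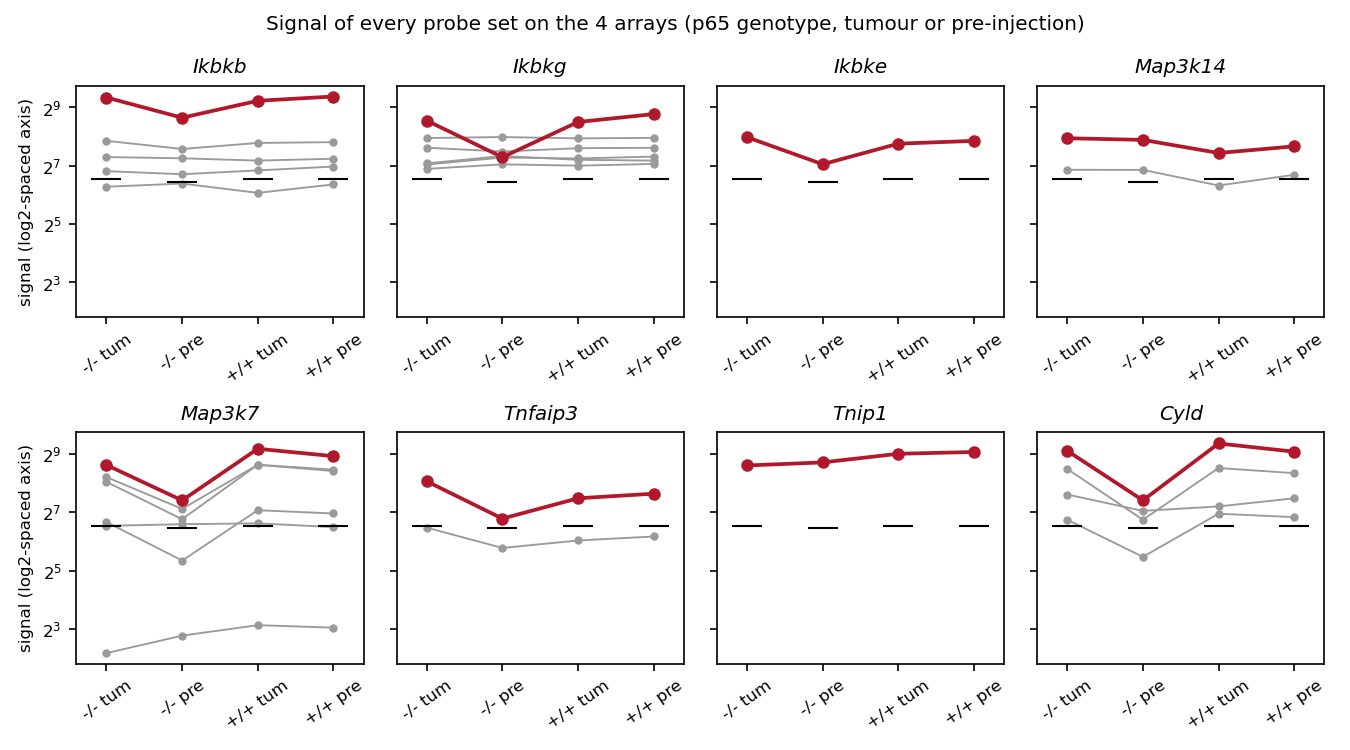
Signal of all 27 probe sets on the 4 arrays, on an axis spaced by log2, with 1 panel per gene and the arrays in the order p65-/- tumour, p65-/- pre-injection, p65+/+ tumour and p65+/+ pre-injection. Red marks the probe set that stands for the gene, grey the others and black bars the floor of each array. Among the red probe sets, the p65-/- pre-injection array is the lowest in Cyld, Map3k7, Ikbkg, Tnfaip3, Ikbke and Ikbkb, and not in Tnip1 and Map3k14. In Ikbkg the dip is that of 1 of 6 probe sets, and in Map3k7 the probe set 1449693_at is flat.

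Cyld, the deubiquitinase that trims ubiquitin chains from NEMO and other signalling proteins, showed the widest range between arrays of the 8 genes. Its brightest probe set had a signal of 552 in p65-/- tumour cells, 170 in p65-/- pre-injection cells, 657 in p65+/+ tumour cells and 541 in p65+/+ pre-injection cells. The p65-/- pre-injection array was the low one, and the p65-/- tumour array was level with p65+/+ pre-injection cells, at 1.02-fold. Cyld was 3.18-fold lower in p65-/- than in p65+/+ cells before injection, and 7.89% of the compared genes were lower still. In tumour cells it was 1.19-fold lower in p65-/- cells. It was 3.25-fold higher in p65-/- tumour than in p65-/- pre-injection cells, against 1.22-fold higher in p65+/+ tumour than in p65+/+ pre-injection cells.

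All 4 Cyld probe sets were compared before injection and all 4 were lower in p65-/- cells. A second one, 1429617_at, drawn from the same sequence as the brightest (BM119209), gave 107 in p65-/- and 325 in p65+/+ pre-injection cells, a log2 difference of -1.60. A further one fell under the floor, at 44.4 in p65-/- against 114 in p65+/+ cells, and was thus at least 1.30-fold lower. The last one gave 132 in p65-/- and 179 in p65+/+ cells, a log2 difference of -0.43. Before injection the size of the difference therefore varied from probe set to probe set while its direction did not. In tumour cells the last one, 1445213_at, was higher in p65-/- cells (log2 difference 0.41) and the other 3 were lower. For p65+/+ tumour against pre-injection cells it gave -0.28, and the brightest 0.28.

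Tnfaip3, the gene of the ubiquitin editor A20, had a signal of 267 in p65-/- tumour cells, 110 in p65-/- pre-injection cells, 179 in p65+/+ tumour cells and 199 in p65+/+ pre-injection cells. The lowest and the highest signal of the 4 arrays both came from p65-/- cells. Before injection p65-/- cells were 1.81-fold lower than p65+/+ cells, under the 2-fold line, and in tumour cells they were 1.50-fold higher. The p65-/- tumour cells had 2.43-fold the signal of p65-/- pre-injection cells, while p65+/+ tumour cells lay 1.11-fold below p65+/+ pre-injection cells. A second probe set was under the floor on every array, with 88.9 in p65-/- tumour, 54.9 in p65-/- pre-injection, 65.5 in p65+/+ tumour and 72.1 in p65+/+ pre-injection cells, the same order of arrays. Through the authors' deposited table the implied log2 differences were -1.83 before injection and 2.31 for the p65-/- tumour change. These are larger than those from the signals and past 2-fold in both. The table's quotients for Tnfaip3, -1.27 and 1.34, did not match the signals, so the implied values mix 2 sources. With the floor at the 70th percentile of each array the p65-/- tumour change of Tnfaip3 came to 0.73 (log2), under 2-fold.

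Tnip1, the gene of ABIN1, had 1 probe set and varied little. It gave 390 in p65-/- tumour cells, 419 in p65-/- pre-injection cells, 514 in p65+/+ tumour cells and 537 in p65+/+ pre-injection cells. Both p65-/- arrays were below both p65+/+ arrays, by 1.32-fold in tumour cells and 1.28-fold before injection. Its promoter window, shown above, held 1 kappa B stretch, with 4 overlapping matches counted over both strands. That of Tnfaip3 held 3 matches in 2 separate stretches. Before injection its log2 difference of -0.36 became 0.01 after scaling to the 75th percentile and 0.14 after quantile normalization, so the sign there depends on the scaling.

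Set side by side, 3 of the 8 genes were 2-fold or more lower in p65-/- than in p65+/+ cells before injection (Cyld, Map3k7 and Ikbkg) and 0 were higher. Among all 12597 compared genes, 18.1% were lower and 2.11% higher by that measure. The members were chosen with earlier results of these data known, so these counts and those below do not test the set against all genes. By probe set, 6 of 24 compared were lower, or 25%, beside 18% of all compared probe sets, and 0 were higher, beside 1.62%. The share by probe set is thus near that of the whole array. The median of the 8 genes was -0.83 and that of all compared genes -0.02 (log2 difference).

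In tumour cells, 0 of the 8 genes differed by 2-fold between p65-/- and p65+/+ cells, beside 5.62% of all compared genes that were lower and 2.74% that were higher. Nor did any of their 24 compared probe sets, beside 5.49% lower and 2.46% higher among all. The folds ran from 1.47-fold lower for Map3k7 to 1.50-fold higher for Tnfaip3. The value of Tnfaip3 (log2 difference 0.58) lay above 92.5% and that of Map3k14 (0.51) above 90.7% of the compared genes, and 13.6% of them lay below that of Map3k7. The median of the 8 was 0.08. Through the authors' deposited table Ikbke had an implied log2 difference of 1.16 in tumour cells, against 0.22 from the signals. The table's quotient for Ikbke did not match the signals, so the implied value mixes both sources.

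**Figure D2:**
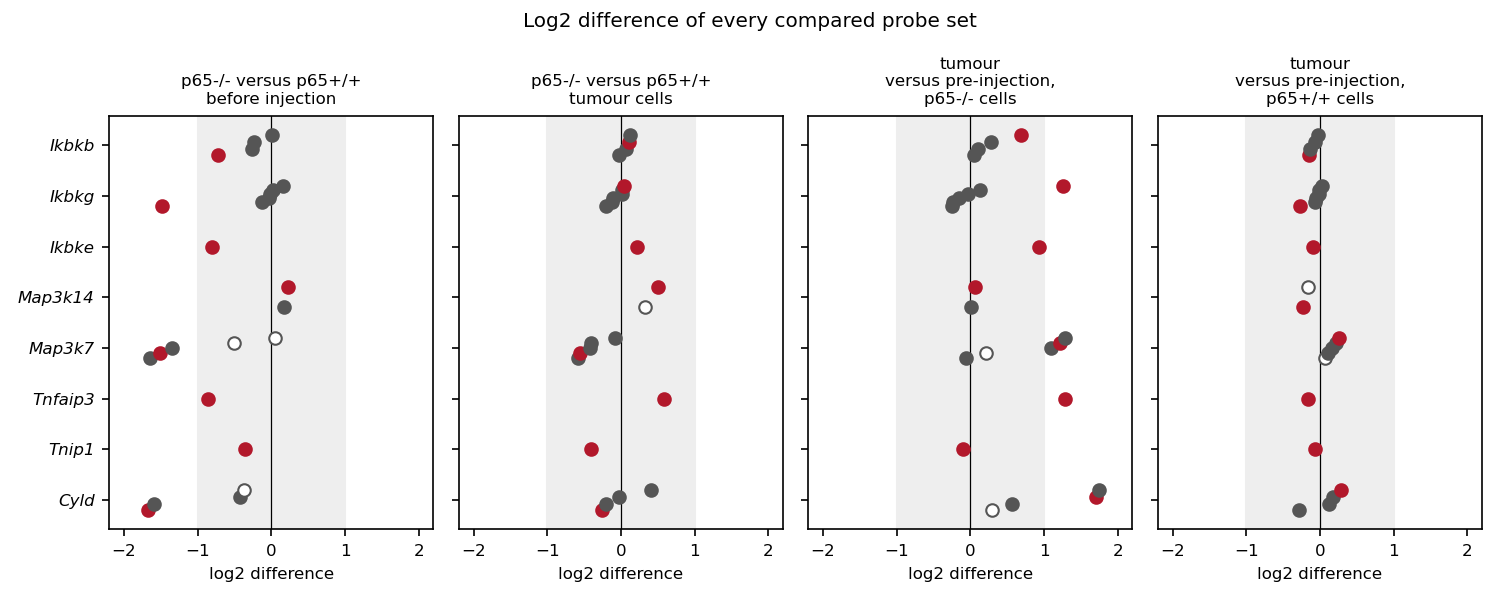
Log2 difference of each compared probe set in the 4 comparisons, with the first-named group over the second, 1 row per gene. Red marks the probe set that stands for the gene, dark grey the others and open circles a limit where 1 array lay under its floor; the grey band is less than 2-fold, and the points outside it are lower in p65-/- pre-injection cells (6 probe sets) or higher in p65-/- tumour than p65-/- pre-injection cells (7 probe sets).

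The tumour change of p65-/- cells uses the same p65-/- pre-injection array as the comparison before injection, so the values are not independent of each other. Cyld, Tnfaip3, Ikbkg and Map3k7, 4 of the 8 genes, were 2-fold or more higher in p65-/- tumour than in p65-/- pre-injection cells and 0 were lower, beside 13.9% higher and 1.5% lower among all 12444 compared genes. By probe set 7 of 24 were higher, beside 13.7%, and 0 lower, beside 1.22%. Scaling each array to the 75th percentile left 1 of the 4, Cyld, at 2-fold, with Tnfaip3 at 1.99-fold, Ikbkg at 1.95-fold and Map3k7 at 1.90-fold. In p65+/+ cells 0 of the 8 changed by 2-fold between tumour and pre-injection cells, beside 0.991% higher and 0.777% lower among all compared genes, and the widest difference was 1.22-fold, for Cyld. The same held for their 24 compared probe sets, beside 0.958% higher and 0.745% lower among all.

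The tumour change in p65-/- cells minus that in p65+/+ cells was 1 or more (log2) for 4 genes: Ikbkg at 1.52, Tnfaip3 at 1.44, Cyld at 1.42 and Ikbke at 1.02. Map3k7 followed at 0.96 and Ikbkb at 0.84, while Map3k14, at 0.28, and Tnip1, at -0.04, were low. Among all 11321 genes with both changes, 16% were 1 or more and 2.66% were -1 or less. The value of Ikbke was past 1 in 3 of 9 ways of processing, and came to 0.84 after quantile normalization, 0.73 after scaling to the 75th percentile, 0.93 after median scaling, 0.94 after cyclic loess, 0.74 with the higher floor and 0.94 without a filter. The median of the 8 was 0.99 and that of all genes 0.09. The difference was not tested, since each change is the ratio of 2 arrays.

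The p65-/- pre-injection array was the lowest of the 4 for 6 of the 8 genes and for 15 of the 24 member probe sets that reached a floor. Over all genes that reached a floor it was lowest for 38.05% and highest for 35.6%, so it stood at an end of the range for most genes. Over all probe sets that reached a floor it was lowest for 41.47% and highest for 33.2%. With p65-/- tumour cells set against p65+/+ pre-injection cells, a ratio that mixes genotype with tumour state, the widest fold of the 8 was 1.38-fold lower, for Tnip1, and the others ran from 1.23-fold lower for Map3k7 to 1.34-fold higher for Tnfaip3.

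**Figure D3:**
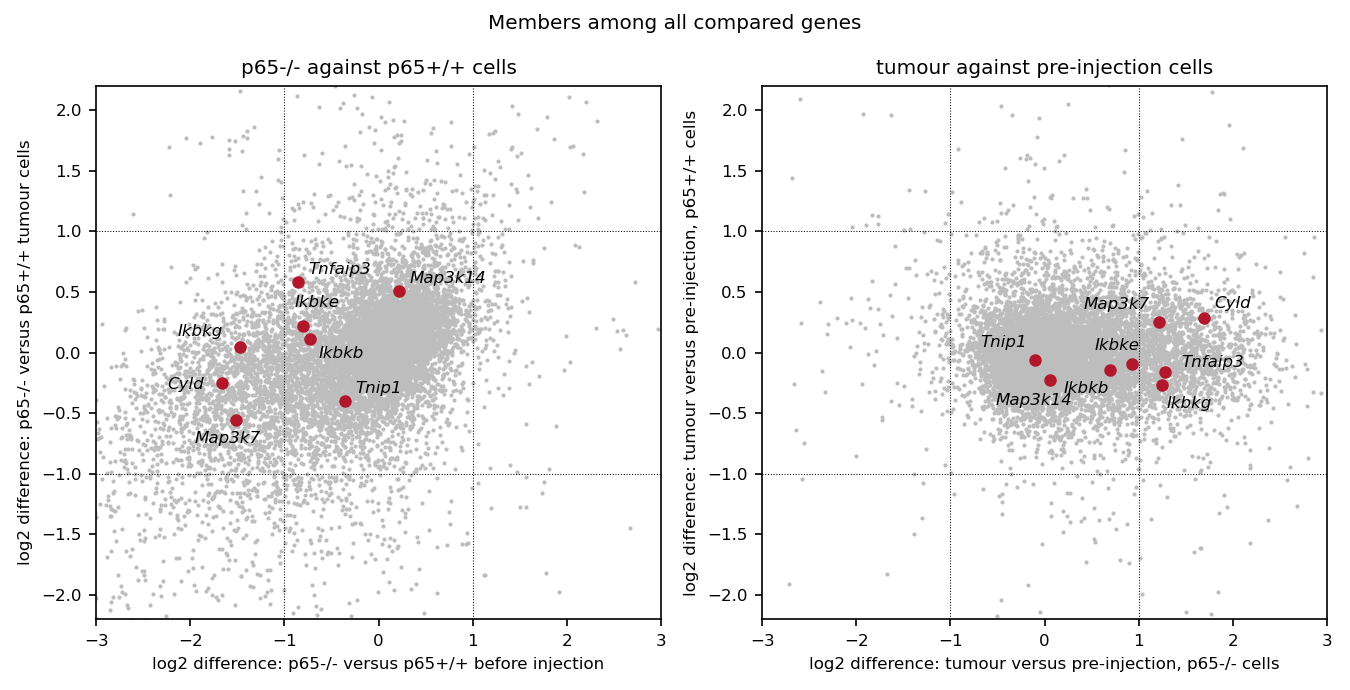
Log2 differences of all compared genes (grey) and of the 8 genes (red), with p65-/- against p65+/+ cells before injection on the horizontal and in tumour cells on the vertical axis on the left, and tumour against pre-injection cells in p65-/- (horizontal) and p65+/+ cells (vertical) on the right. Dotted lines mark 2-fold; 197 of 11756 genes on the left and 37 of 11321 on the right lie outside the axes, and the members spread along the horizontal axis and stay within 2-fold on the vertical one.

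Agreement between probe sets of one gene is a technical measure on the same RNA. In the 5541 genes where at least 2 probe sets could be compared, the within-gene SD of the log2 difference before injection was 0.48, against 0.61 for Ikbkg, 0.73 for Map3k7, 0.71 for Cyld, 0.31 for Ikbkb and 0.04 for Map3k14. Of the 1600 such genes called before injection, 65.1% had another probe set past 2-fold in the same direction and 40.8% had all of them past it. Map3k7 and Cyld belong to the first kind but not to the second, and Ikbkg to neither. For p65+/+ tumour against pre-injection cells the within-gene SD was 0.19, with 0.11 for Ikbkg, 0.07 for Map3k7, 0.06 for Ikbkb, 0.05 for Map3k14 and 0.24 for Cyld. The probe sets of Ikbkb, Ikbkg, Map3k7 and Cyld spread more in the 2 comparisons that use the p65-/- pre-injection array than in the other 2, and those of Map3k14 did not. Over all genes the SD was 0.48 and 0.40 in the first 2 comparisons and 0.32 and 0.19 in the others.

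**Figure D4:**
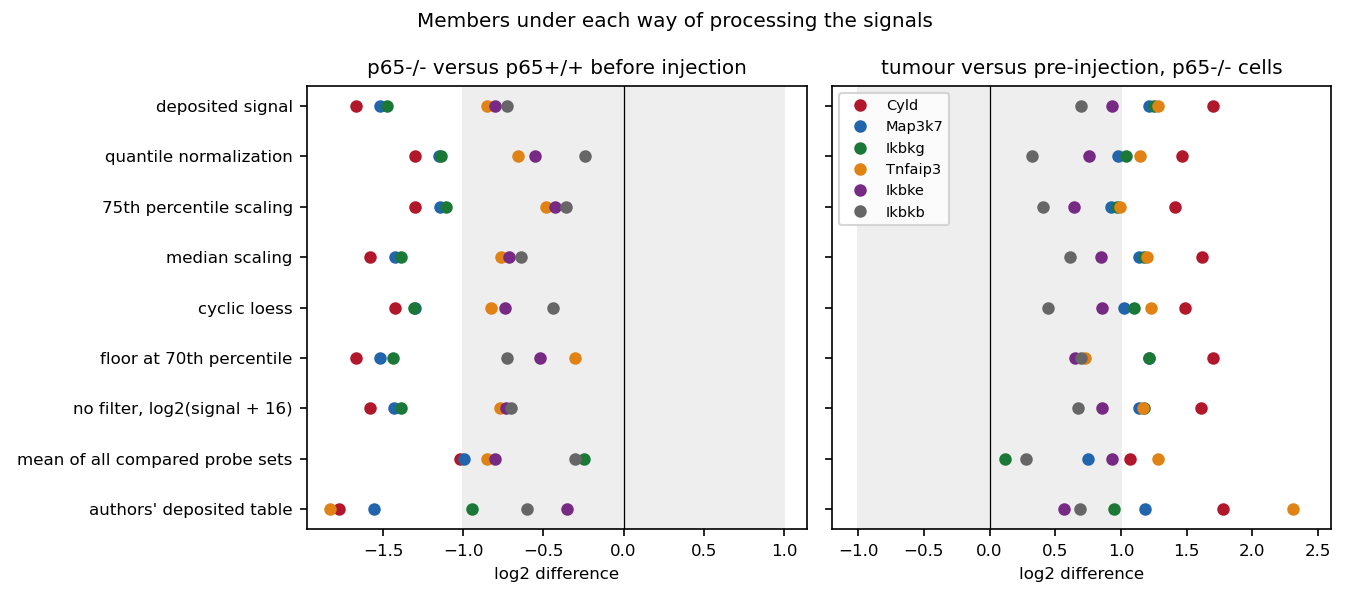
Log2 difference of 6 members under the deposited signal and 8 other ways of processing, for p65-/- against p65+/+ cells before injection (left) and p65-/- tumour against p65-/- pre-injection cells (right). Cyld stays past 2-fold throughout; Ikbkg comes to -0.24 and 0.12 when its probe sets are averaged, and Tnfaip3 passes 2-fold before injection in the authors' deposited table alone.

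The partners of these proteins were taken from 4 lists chosen by function, with earlier results of these data known. In these lists 50 of 58 genes had a probe set of their own. The lists' counts stand against the shares of all compared genes. Before injection 18.1% of these were lower and 2.11% higher, and in tumour cells 5.62% and 2.74%. For the p65-/- tumour change 13.9% were higher and 1.5% lower, and for that of p65+/+ cells 0.991% and 0.777%. TAK1 works with the ubiquitin-binding adaptors TAB2 and TAB3, and Tab2 was 3.11-fold lower in p65-/- than in p65+/+ cells before injection, at 341 against 1059, in both of its probe sets. Tab3 was at least 2.49-fold lower. Together with Birc2 and Birc3, ubiquitin ligases of the TNF receptor complex that were at least 2.62-fold and at least 4.41-fold lower, they made up the 4 of 17 compared receptor-proximal adaptors and kinases that were lower. That count is near the 18.1% of all compared genes that were lower. None of the 17 was higher. The list median was -0.12, or 0.25 after scaling to the 75th percentile, which also took Tab3 to 1.92-fold. Birc3 was called in 1 of its 2 probe sets. In tumour cells it alone of 18 was lower, 2.53-fold and again in 1 of 2 probe sets, with 138 in p65-/- and 350 in p65+/+ tumour cells. Birc3 is a known NF-kB target. For the p65-/- tumour change 1 of 17 was higher, Tab2 at 3.06-fold in both of its probe sets, and 0 were lower.

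A20 acts with Tax1bp1, Itch and Rnf11. These were the 3 of 14 compared genes of the ubiquitin list that were lower in p65-/- cells before injection. That count is near the 18.1% of all compared genes that were lower. In the list 0 were higher, and its median was -0.16. After quantile normalization the same 3 were lower, Rbck1 and Sqstm1 were higher and the median was 0.24. Tax1bp1 was 4.13-fold lower, at 212 in p65-/- and 876 in p65+/+ pre-injection cells, in both of its probe sets. Itch was 3.16-fold lower on its 1 probe set. Rnf11 was 4.27-fold lower in 2 of its 4 compared probe sets, and it was the 1 of 14 that was lower in tumour cells too, at 3.70-fold, with 721 in p65-/- and 2671 in p65+/+ tumour cells. In p65-/- tumour against p65-/- pre-injection cells 2 of 14 were higher, Tax1bp1 at 3.52-fold and Itch at 2.56-fold, and 0 were lower. That count is near the 13.9% of all compared genes that were higher.

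Of the IKK relatives and their partners, 4 of 7 compared were lower in p65-/- cells before injection and 0 were higher (median -1.07). Among all compared genes 18.1% were lower and 2.11% higher. Azi2, an adaptor of the IKK-related kinases, was 4.22-fold lower in 1 of 2 probe sets. The chaperone gene Hsp90aa1, whose product is found with IKK complexes, was 3.77-fold lower in all 3 of its probe sets, and Tbk1, the nearest relative of Ikbke, 2.16-fold in both of its own. Tank, an adaptor of TBK1 and IKKe, was at least 2.11-fold lower before injection and at least 2.25-fold lower in tumour cells, where it was the 1 of 7 lower, in 1 of 2 probe sets each time. Tbk1 and Tank came under 2-fold before injection with 3 of the 4 other scalings each. After scaling to the 75th percentile they were 1.67-fold and 1.63-fold lower, while Azi2 and Hsp90aa1 stayed as called. For the p65-/- tumour change 3 of 6 compared were higher: Azi2 at 3.21-fold, Hsp90aa1 at 2.88-fold and Tbk1 at 2.32-fold. In that comparison 0 were lower, beside 13.9% higher and 1.5% lower among all compared genes. Scaling to the 75th percentile took the change of Tbk1 to 1.91-fold.

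Among NF-kB subunits and inhibitors 5 of 8 were lower before injection and 4 of 7 in tumour cells, with 0 higher in each (medians -1.32 and -1.28). These counts include Rela, whose deletion defines the genotype, and without it they were 4 of 7 and 3 of 6 (medians -1.20 and -1.06). Among all compared genes 18.1% and 5.62% were lower. After scaling to the 75th percentile, with Rela, 4 of 8 were lower before injection (median -0.95), as Bcl3 came to 1.78-fold, and 4 of 7 in tumour cells. The values of Nfkbie in both comparisons and of Relb in tumour cells are limits, since the p65-/- signal lay under the floor. Nfkbia, the gene of IkBa and a classical NF-kB target, was 3.15-fold lower in p65-/- than in p65+/+ cells before injection and 2.47-fold lower in tumour cells, in all 5 probe sets each time. Tnfaip3, also named above as a classical NF-kB target, was 1.81-fold lower in p65-/- than in p65+/+ cells before injection. In tumour cells it was 1.50-fold higher, and both values were under 2-fold. For the p65-/- tumour change 1 of 7 compared subunits and inhibitors was higher, Nfkbiz at 2.57-fold, and 0 were lower. Among all compared genes 13.9% were higher and 1.5% lower. In p65+/+ cells 0 genes of the 4 lists changed by 2-fold between tumour and pre-injection cells.

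For the 4 members whose signal differed by 2-fold or more between any 2 arrays, the 3 genes with the most similar levels over the 4 arrays were looked up among 10038 genes over the floor on all arrays. Likeness was the largest deviation between the mean-centred log2 levels on any array. For Cyld these were Osbpl9 (0.04), Pdzd8 (0.07) and Wac (0.08), and for Map3k7 they were Ccdc59 (0.03), Sc5d (0.04) and Trim33 (0.05). Ikbkg was closest to Fbxo3, Clpx and Med7 (each 0.02), and Tnfaip3 to Ddx42 (0.05), Itpripl2 (0.05) and Maoa (0.07). With 4 arrays such likeness is a weak description.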

How the data were processed

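Per the labels' protocols, RNA was extracted in Trizol and 6 ug of it went into biotin-labelled cRNA. The analysis started from the series matrix that the authors deposited, which holds a linear signal intensity for each probe set on each array. No source used here gives its summary and scaling steps. In addition, the authors' deposited table named for log2 ratios holds a signed score, the quotient of the log2 levels of 2 arrays. Among probe sets at 300 or more on both arrays, 70.35% to 89.1% matched that quotient within 0.02, and 24.1% to 37.9% of all probe sets did. It served as an alternative, through the log2 difference implied when its quotient is applied to the lower log2 signal of the 2 arrays. Where quotient and signals do not match, this value mixes 2 sources and is not the authors' own difference. The scanner files were not used, and no batch is recorded.

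Signals below 1 were set to 1 and taken to log2 with no further normalization; the log2 differences were computed here from the deposited signals. Probe sets were named with the platform annotation of 2016: 34945 had 1 gene, 932 had several and 9160 had none. A gene stood for by its probe set with the highest mean signal was compared where 1 of 2 arrays reached the floor, and lower signals were raised to the floor. Probe sets ending in _x_at or _s_at stood for a gene where it had no other. Calls were made at 2-fold. The named genes were the 8 members, Rela, members of 4 pathway lists and 5 marker lists past 2-fold or at issue, and 3 genes of like pattern per varying member; the members and lists were chosen with earlier results of these data known. Alternatives used limma 3.58.1 in R 4.3.3, and the calling step was tested on simulated data. The simulation held no dim array and no true changes near 2-fold or near the floor, so it does not cover those cases.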

Additional observations from a re-analysis of the deposited data

Results flagged for a closer look

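Ikbkg and Tnfaip3 moved in opposite directions between tumour and pre-injection cells in the 2 genotypes, with 1 of the 2 changes past 2-fold. For Ikbkg the log2 tumour change was 1.25 in p65-/- cells and -0.27 in p65+/+ cells, from 1 probe set of 6. For Tnfaip3 it was 1.28 in p65-/- cells and -0.16 in p65+/+ cells. The difference between genotypes was not tested, because each change is the ratio of 2 arrays, and the changes in p65+/+ cells were small.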

How the results depend on the processing

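No paired analysis was possible because each group had 1 array, and for the same reason no array could be left out. Of the values of single members under the 8 alternatives, 294 moved by less than the within-gene SD of probe sets and 26 by more, and no called value changed sign. With the mean of all compared probe sets, the members past 2-fold numbered 1 instead of 3 before injection (Cyld remained), 2 instead of 4 for the p65-/- tumour change and 2 instead of 4 for the difference of the tumour changes (the cause was not tested; flat probe sets and probe sets limited by the floor both enter the mean). Scaling to the 75th percentile left 1 of 4 for the p65-/- tumour change. The floor at the 70th percentile left 2 of 4 for the difference of the tumour changes, as it raises the low values of Ikbke and Tnfaip3. The authors' deposited table gave 1 instead of 0 in tumour cells, Ikbke, and the cause was not tested. The median log2 difference of all genes before injection was -0.02, and 0.24 after quantile normalization and 0.35 after scaling to the 75th percentile. For the p65-/- tumour change it was 0.03, and -0.18 and -0.25 under these settings. The scalings of the pathway lists and the list without Rela were added after seeing the data. Decreases made up 89.6% of the calls before injection, and 63.5%, 65.2% and 65.2% with quantile normalization, 75th percentile scaling and the deposited table. For the p65-/- tumour change the shares were 9.73%, and 26.7%, 24.5% and 33.3%. In tumour cells they were 67.3% with the signals and 54.9% with the deposited table. The dim p65-/- pre-injection array limits what can be read from probe sets near the floor.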
